A study of Mus musculus with 21 samples.

Results

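The hearts described here came from mice that had carried transverse aortic constriction (TAC) for 8 weeks and received semaglutide (Sema) only in the last 4 of them, and they were compared with hearts after 8 weeks of TAC without the drug. Members were chosen by their labels: 3 libraries labelled TAC 8W + Sema 4W and 3 labelled TAC 8W, so 6 of the 21 RNA-seq libraries of the series. All mice were wild-type C57BL/6J males, 8 weeks old when they entered a quarantine of 1 week before the experiment, and every mouse had TAC or sham surgery and received Sema or its vehicle by intraperitoneal injection. For the daily dose, the labels have 60.0 mg/kg and the study's methods the same figure in micrograms, and which one was used was not settled here. The labels name cardiomyocytes while the methods name left ventricular tissue, and transcripts of fibroblasts, endothelial cells and macrophages were present in every library. The count columns of TAC 8W + Sema 4W carry an M that no source explains and were matched to that group by elimination.

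The 2 TAC groups lie in different library sets. TAC 8W was placed with Sham 1 to 3 and TAC 8W + Sema 4W with Sham 4 to 6, because the shams are numbered in that order, which no label states outright. Mitochondrially encoded genes took 21.3 to 30.1% of counts in TAC 8W and 25.2 to 32.6% in Sham 1-3, against 43.8 to 49.0% in TAC 8W + Sema 4W and 45.1 to 48.4% in Sham 4-6. Each gene is therefore given with 3 values on the log2 scale: its change (TAC 8W + Sema 4W minus TAC 8W), its sham shift (Sham 4-6 minus Sham 1-3) and its sham-corrected change, which is the first minus the second. No TAC library without Sema lies in the second set, so in TAC hearts drug and library set cannot be told apart. The correction takes the shift between the sets to be the same in TAC as in sham hearts, which was not tested. A change with Sema 4W below names this contrast of groups. A change that differed from 0 at an edgeR adjusted p under 0.05 was called opposing where the sham shift had the other sign, exceeding where it had the same sign and was smaller, and within where it had the same sign and was as large or larger.

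Pressure overload makes cardiomyocytes enlarge and take up part of the fetal gene programme, while cardiac fibroblasts become activated and lay down collagen and other matrix. Sema is an agonist of the receptor of glucagon-like peptide 1, a gut hormone that raises cyclic AMP in the cells carrying its receptor. Nr4a1, on which the study centres, is an orphan nuclear receptor and an immediate early gene, whose transcript rises within minutes of cyclic AMP, calcium or growth factor signals.

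Total counts were 9807498 to 16457091 in TAC 8W, 12933772 to 15190608 in TAC 8W + Sema 4W and 10255847 to 17170139 in the 6 shams, and 12626 of 22136 genes passed the filter on low counts. Whether the libraries of a group are different mice is not given in the sources used here, so p-values reflect library-to-library spread, which may be technical. TAC 8W + Sema 4W replicates 1 and 2 were closer to each other than any other pair of the 21 libraries (chi-square of their counts per degree of freedom 3.02, against 7.15 for the next pair). That is above counting noise, which does not show whether they came from different mice. Both were kept in the main fit, so its p-values take them as separate libraries. Of the 59 changed genes picked by the naming rules, 32 remained past the threshold with the pair averaged into 1 library, beside 346 of all 916 changed genes. Replicate 3 of that group stood apart from both, with a Pearson correlation of log2 CPM across genes of 0.884 and 0.883 with its own group and 0.890, 0.924 and 0.930 with TAC 8W replicates 1 to 3. Within TAC 8W, replicate 1 had the highest summed level of collagens and of fibroblast and macrophage markers.

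Against TAC 8W, 531 genes rose and 385 fell with Sema 4W, which is 4.21% and 3.05% of the genes tested and 7.25% together (edgeR quasi-likelihood test, adjusted p under 0.05). The falling genes included 14 of 21 collagens, 19 of 35 matrix glycoproteins and 7 of 10 fibroblast markers, and the rising ones 10 of 13 mitochondrially encoded genes and 5 of 18 acute phase genes. Between the sham sets, with no difference in surgery or drug, 354 genes were higher and 62 lower in Sham 4-6 (2.8% and 0.491%). Of the 916 changed genes, 639 exceeded their sham shift, 129 opposed it and 148 were within it. Over all 12626 genes regardless of any threshold the same classes held 5197, 3189 and 4240.

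The falling and rising genes stood differently to the sham shift. Among the 385 that fell, 273 were exceeding, 100 opposing and 12 within, with median changes of -2.05, -1.95 and -1.72 beside median sham shifts of -0.62, 0.39 and -2.06. Among the 531 that rose, 366 were exceeding, 29 opposing and 136 within, and the exceeding ones had a median change of 1.58 beside a sham shift of 1.06. Thus the median sham-corrected change was -1.41 in the genes that fell and exceeded and 0.47 in those that rose and exceeded. The sham-corrected change itself passed an adjusted p of 0.05 in 2 genes, Ecm2 and Nr4a1, both lower, which is 0.0158% of genes, and in 14 genes (0.111%) at an adjusted p under 0.1. At an unadjusted p under 0.05 it was lower in 569 genes (4.51%) and higher in 204 (1.62%), 6.12% together.

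**Figure D1:**
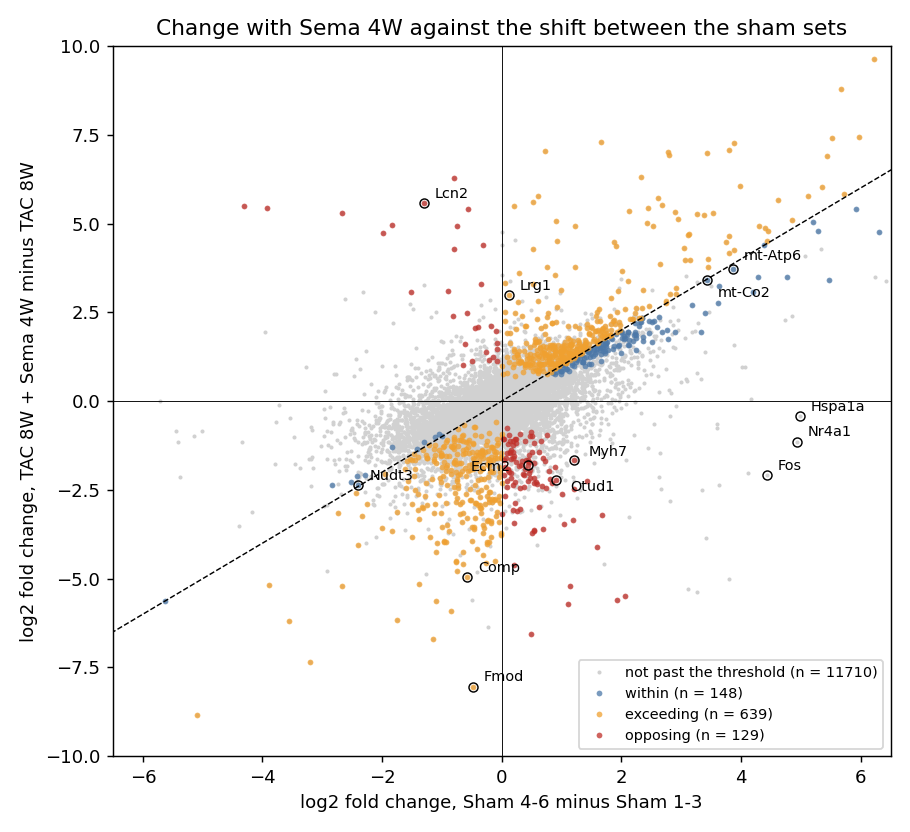
Each point is 1 gene, with its log2 fold change between the sham sets on the x axis and between the TAC groups on the y axis. Colours mark the 916 changed genes by class, the dashed line marks equal values, and 11 genes lie outside the frame. Among rising genes 366 exceed the sham shift, 29 oppose it and 136 lie on or below the dashed line, and among falling genes 273 exceed it, 100 oppose it and 12 lie on or above the line.

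The counts rested heavily on single libraries. Leaving out TAC 8W + Sema 4W replicate 3 gave 3377 changed genes (1421 rose, 1956 fell), and leaving out TAC 8W replicate 1 gave 305 (247 rose, 58 fell). For replicate 1 or replicate 2 of TAC 8W + Sema 4W the numbers were 382 and 332, without TAC 8W replicate 3 they came to 563, and with the close pair averaged to 353. Replicate 3 lay beyond every TAC 8W library in the direction of the change for 502 of the 531 rising and 360 of the 385 falling genes. These genes were called in a fit that holds replicate 3, so such a position was favoured by the way they were chosen. For 117 of the rising and 70 of the falling genes replicate 3 was nearer to the TAC 8W mean than to the mean of replicates 1 and 2.

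**Figure D2:**
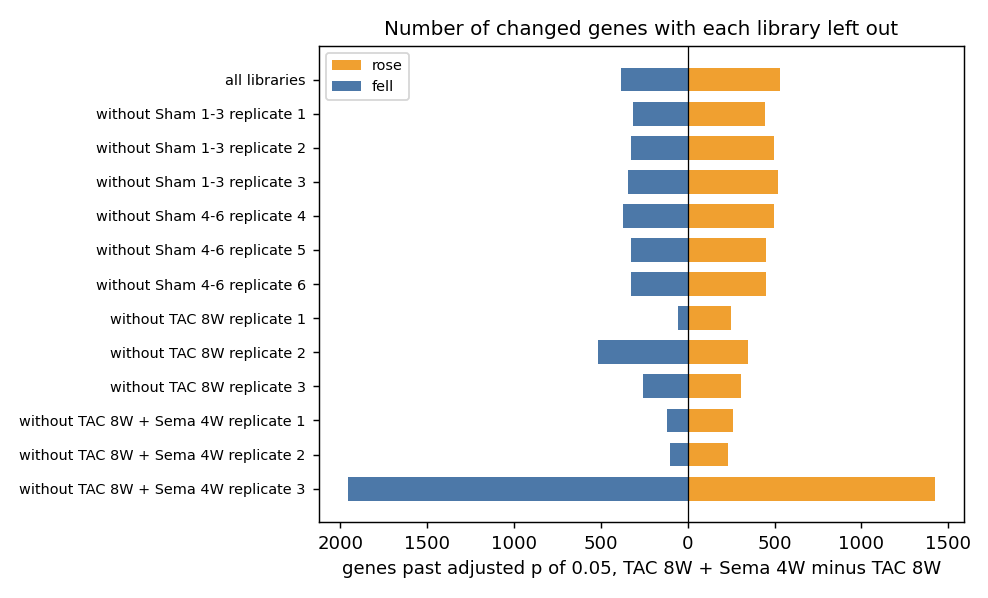
Bars give the number of genes past an edgeR adjusted p of 0.05 in the comparison of Sema 4W with TAC 8W, to the right for genes that rose and to the left for genes that fell, with all libraries and with each of 12 libraries left out. The longest bars, 1421 and 1956 genes, belong to the fit that lacks TAC 8W + Sema 4W replicate 3.

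Ecm2 and Nr4a1 are shown first with the sequence at their start sites, since they are the 2 genes whose change differed from the sham shift. Ecm2, an extracellular matrix protein with leucine-rich repeats, lies on chromosome 13, bases 49504810 to 49532789 of GRCm38, plus strand, and Nr4a1 on chromosome 15, bases 101254269 to 101274795, plus strand (GENCODE M21). The 300 bases printed span the RefSeq start of each gene (GRCm38.p6), at 49504560 to 49504859 and 101266596 to 101266895. Capitals mark matches to the core CGTCA of the cyclic AMP response element and to the TEAD motif GGAATG, on either strand.
Ecm2: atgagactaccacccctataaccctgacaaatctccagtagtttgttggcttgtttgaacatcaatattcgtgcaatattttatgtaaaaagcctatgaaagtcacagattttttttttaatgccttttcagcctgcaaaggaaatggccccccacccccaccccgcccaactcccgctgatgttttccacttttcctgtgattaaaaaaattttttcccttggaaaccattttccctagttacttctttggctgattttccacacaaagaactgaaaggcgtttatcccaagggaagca
Nr4a1: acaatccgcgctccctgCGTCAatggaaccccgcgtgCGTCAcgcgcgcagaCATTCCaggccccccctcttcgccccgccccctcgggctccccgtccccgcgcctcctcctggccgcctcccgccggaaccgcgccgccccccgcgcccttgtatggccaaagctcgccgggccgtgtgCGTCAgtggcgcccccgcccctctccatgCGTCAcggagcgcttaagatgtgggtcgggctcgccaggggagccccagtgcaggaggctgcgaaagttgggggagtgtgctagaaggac

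The Nr4a1 window held 4 CGTCA cores and 1 TEAD match, and the Ecm2 window held neither. The CGTCA core, which was added to the search after the sequence had been read, occurs at least once in 20.8% of the 32851 RefSeq promoter windows and at least 4 times in 0.231% of them. The other motifs searched on both strands were the full cyclic AMP response element TGACGTCA (1.79% of all windows), the Nr4a1 response element AAAGGTCA (1.51%), GGAATG (14.7%) and the AP-1 site TGANTCA (7.81%). The full element contains the core on both strands. Of the 18 genes chosen for passing the sham-corrected test or for the size of their sham-corrected change, 12 matched a RefSeq window, and 0 of these held the full element, the Nr4a1 element or the AP-1 site, while 2 held GGAATG (Nr4a1 and Mup3).

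Ecm2 was at 41.9, 25.0 and 31.1 CPM (counts scaled to library size) in TAC 8W and at 10.2, 7.42 and 10.3 in TAC 8W + Sema 4W. Sham 1-3 had 19.5, 17.2 and 20.7 CPM and Sham 4-6 had 30.8, 20.4 and 26.9, so that all 3 Sema 4W libraries lay under every library of the other 3 groups. The change was -1.81 (SE 0.24, edgeR adjusted p = 5.64e-04), the sham shift 0.44 and the sham-corrected change -2.25 (SE 0.34, adjusted p = 0.0142). Within its own set Ecm2 was lower in TAC 8W + Sema 4W than in Sham 4-6 by -1.48 (SE 0.24, edgeR adjusted p = 0.00295). The adjusted p of the sham-corrected change was 0.00353 to 0.105 with single libraries left out, past the threshold in 5 of 12 such fits. It was missed without any 1 of the 3 Sham 1-3 libraries, Sham 4-6 replicates 4 or 6, or TAC 8W + Sema 4W replicates 1 or 2, with values from -2.41 to -1.99 throughout. With the close pair averaged the adjusted p was 0.0766, with the other groups taken out of the fit 0.0585, and without GC and length trends 0.0561.

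Nr4a1 reached its result by another route. It was at 103, 116 and 154 CPM in TAC 8W and at 58.4, 54.3 and 56.4 in TAC 8W + Sema 4W. These groups did not overlap, as in 10.2% of all genes in that direction. The sham sets differed far more, with 4.65, 8.46 and 4.36 CPM in Sham 1-3 and 217, 81.7 and 240 in Sham 4-6. The change of -1.14 (SE 0.61, edgeR adjusted p = 0.265) did not pass the threshold, while the sham shift of 4.94 did (SE 0.72, adjusted p = 0.0015), and the sham-corrected change was -6.08 (SE 0.93, adjusted p = 0.0142). Set against its own shams, TAC 8W was higher by 4.41 (SE 0.71, edgeR adjusted p = 0.00213), and TAC 8W + Sema 4W differed by -1.67 (SE 0.62, adjusted p = 0.184). The adjusted p of the sham-corrected change was 0.0081 to 0.117 with single libraries left out and missed 0.05 without the same 7 libraries as for Ecm2, and it was 0.0786 with the close pair averaged. Of the -6.08, the difference between the sham sets accounts for 4.94.

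Creb5, a cyclic AMP response element binding protein that the study places upstream of Nr4a1, was at 1.54, 1.06 and 0.919 CPM in TAC 8W and at 2.18, 0.824 and 0.715 in TAC 8W + Sema 4W. These overlap, with a change of 0.04 (SE 0.61, edgeR adjusted p = 0.975) and a sham shift of 1.36. Of the 25 genes tested in the list of phosphoinositide 3-kinase, AKT, Creb and Nr4a genes, 0 rose or fell, and the median change was -0.41 beside -0.03 over all genes. Glp1r, which encodes the receptor of Sema, had no count in any of the 6 TAC libraries. Of the 13 genes tested among incretin receptors and cyclic AMP enzymes 1 fell and 0 rose. Pde3a, a phosphodiesterase that breaks down cyclic AMP, was at 1.41, 1.34 and 14.8 CPM with Sema 4W and at 12.7, 6.11 and 4.59 in TAC 8W.

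Other immediate early genes had the pattern of Nr4a1, with high levels in TAC 8W and in Sham 4-6 and low ones in Sham 1-3. Fos, a subunit of the transcription factor AP-1, was at 28.4, 27.8 and 19.3 CPM in TAC 8W and at 7.07, 10.3 and 0.715 with Sema 4W, while the sham sets had 0.314 to 0.785 and 3.26 to 18.9. Its change of -2.08 missed the threshold (SE 0.83, edgeR adjusted p = 0.134) and its sham shift was 4.43, which makes its sham-corrected change -6.51 (SE 1.29, adjusted p = 0.0901). Egr1, a zinc finger transcription factor, fell from 29.1, 13.1 and 26.4 CPM to 5.22, 7.21 and 2.21, by -2.25 (SE 0.67, edgeR adjusted p = 0.0466) against a sham shift of 1.43. That call was lost with 9 of the 12 libraries left out in turn, where its adjusted p reached 0.167. Btg2, an antiproliferative early gene, went from 28.3 to 43.8 CPM down to 13.9 to 19.99, with a change that missed the threshold (-1.01, SE 0.46, edgeR adjusted p = 0.187). Its groups did not overlap, as in 10.2% of all genes in that direction.

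Of 23 immediate early genes tested, 4 fell and 0 rose, 16 had a lower sham-corrected change at an unadjusted p under 0.05, and their median change, sham shift and sham-corrected change were -0.91, 1.43 and -2.11. The medians over all genes were -0.03, 0.02 and 0.00. In the shams 3 of them were higher in Sham 4-6 past the threshold. With single libraries left out 1 to 4 of the 23 fell, 1 when this was TAC 8W + Sema 4W replicate 1, and 2 when it was its replicate 2, TAC 8W replicate 1 or 3, Sham 1-3 replicate 1 or 2, or Sham 4-6 replicate 6, and 2 fell with the pair averaged. Of 15 heat shock chaperones 0 rose or fell, and their median sham-corrected change was -0.21. Dnajb1, a co-chaperone of Hsp70, was at 20.3, 89.5 and 19.9 CPM in TAC 8W and at 22.2, 20.5 and 11.6 with Sema 4W, and Hspa1a, a stress-induced Hsp70, had a sham shift of 4.99 and a change of -0.42 (SE 1.05, edgeR adjusted p = 0.829).

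Otud1, a deubiquitinase, opposed its sham shift with a clear gap between the TAC groups. It was at 51.2, 129 and 111 CPM in TAC 8W and at 16.1, 17.9 and 27.7 with Sema 4W, beside 5.47 to 7.89 in Sham 1-3 and 7.83 to 19.6 in Sham 4-6. Its change was -2.23 (SE 0.53, edgeR adjusted p = 0.0142) and its sham shift 0.91. Without TAC 8W + Sema 4W replicate 1 or 2, or with the pair averaged, its adjusted p was 0.073, 0.0666 and 0.0711.

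Most collagens fell. Of 21 collagen chains tested, 14 fell and 0 rose, 12 of them against a sham shift of the other sign, and 16 had a lower sham-corrected change at an unadjusted p under 0.05. All 21 sham-corrected values were below 0, with a median of -2.40. Summed over the list, collagens took 4766, 1218 and 2257 CPM in TAC 8W, 1161, 1209 and 766 with Sema 4W, 722 to 982 in Sham 1-3 and 981 to 1100 in Sham 4-6. TAC 8W replicate 2 was thus just above the highest library with Sema 4W, and replicate 1 was far above the rest. Only 3 of the 21 fell without TAC 8W replicate 1, 7 and 6 did without replicates 1 or 2 of TAC 8W + Sema 4W, and 6 did with that pair averaged. The number with a lower sham-corrected change at an unadjusted p under 0.05 was 13 to 18 over those 12 fits.

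Col1a1, the main chain of fibrillar collagen type I, was at 515, 114 and 164 CPM in TAC 8W and at 77.9, 81.7 and 44.9 with Sema 4W. Sham 1-3 had 43.4 to 67.6 CPM and Sham 4-6 had 78.2 to 110. The TAC groups did not overlap, the change was -1.96 (SE 0.43, edgeR adjusted p = 0.0103), the sham shift 0.79 and the sham-corrected change -2.75 (SE 0.60, adjusted p = 0.113). The change was -0.97 with an edgeR adjusted p of 0.14 when TAC 8W replicate 1 was left out. Set against its own shams, Col1a1 was 2.33 higher in TAC 8W (SE 0.43, edgeR adjusted p = 0.00565) and differed by -0.42 in TAC 8W + Sema 4W (SE 0.42, adjusted p = 0.707).

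Other collagens stood the same way to their shams. Col1a2, the second chain of type I, changed by -2.24 (edgeR adjusted p = 0.00446) and Col3a1, of type III, by -1.71 (adjusted p = 0.0258). Col16a1, a collagen found beside fibrils, fell from 54.6, 13.3 and 16.1 CPM to 6.53, 8.24 and 3.77, a change of -2.19 (SE 0.46, edgeR adjusted p = 0.00772) with a sham shift of 0.81. Col8a1, a short-chain collagen, fell from 71.0, 5.23 and 14.5 CPM to 1.85, 1.85 and 2.08, by -3.97 (SE 0.71, edgeR adjusted p = 0.00306), with a sham shift of -0.25. In TAC 8W against Sham 1-3, 10 of the 21 collagens were higher and 0 lower (background 1.55% and 0.665%, 2.22% together), and in TAC 8W + Sema 4W against Sham 4-6, 0 were either (1.3% and 0.713%). Those contrasts share libraries with the change and are given beside it for that reason only.

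Matrix glycoproteins and proteoglycans fell in 19 of 35 members tested, and 0 rose, with 10 opposing and 9 exceeding and a median sham-corrected change of -1.82. Fmod, fibromodulin, which binds collagen fibrils, was at 43.2, 7.79 and 3.29 CPM in TAC 8W and at 0.109, 0.103 and 0 with Sema 4W. The latter rest on 2 counts in all, so the ratio of the groups was 427 with a 95% interval of 118 to 3527 (exact binomial, counting error only). TAC 8W replicate 1 held most of the counts, and without it the ratio was 92.2 (25.02 to 769.5). Mfap4, a microfibril protein, fell from 84.9, 32.7 and 47.0 CPM to 9.14, 6.59 and 3.77, a change of -3.09 (SE 0.56, edgeR adjusted p = 0.0036) beside a sham shift of 0.25. Fndc1, a fibronectin domain protein, had 75.3, 5.23 and 16.8 CPM in TAC 8W and 2.39, 0.721 and 4.48 with Sema 4W, and both sham sets (7.35 to 11.7 and 11.7 to 15.5) lay above all 3 Sema 4W libraries. Adamtsl2, which binds microfibrils, fell from 69.1, 30.2 and 63.0 CPM to 12.9, 13.7 and 17.8, by -1.87 (SE 0.46, edgeR adjusted p = 0.0168), against a sham shift of 0.89. Only 6 of the 35 fell without TAC 8W replicate 1, with other libraries left out 13 to 23 did, and with the pair averaged 14.

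Products of activated fibroblasts fell in 11 of 23 members, 9 of them exceeding their sham shift, and 0 rose. Comp, a matrix protein of cartilage and of fibrotic heart, was at 315, 62.9 and 21.3 CPM in TAC 8W and at 5.33, 5.77 and 2.01 with Sema 4W, close to the 2.95 to 9.29 and 3.91 to 4.37 of the sham sets. Its change was -4.95 (SE 0.84, edgeR adjusted p = 0.00225) and its sham shift -0.57. Cilp, a secreted cartilage protein induced by transforming growth factor beta, went from 506, 119 and 158 CPM to 24.9, 21.5 and 18.1, a change of -3.601 (SE 0.58, edgeR adjusted p = 0.00161) beside a sham shift of -0.46. With each of 12 libraries left out in turn Cilp stayed past the threshold (adjusted p at most 0.0116). Ccn5, a matricellular protein, fell from 62.8, 11.4 and 8.11 CPM to 3.05, 1.96 and 2.66, and Sfrp2, a secreted modulator of Wnt signals, from 20.003, 4.96 and 3.29 CPM to 0.326, 0.412 and 1.36. In each of these genes TAC 8W replicate 1 was the highest library, and without it 4 of the 23 fell, while 7 did with the pair averaged.

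**Figure D3:**
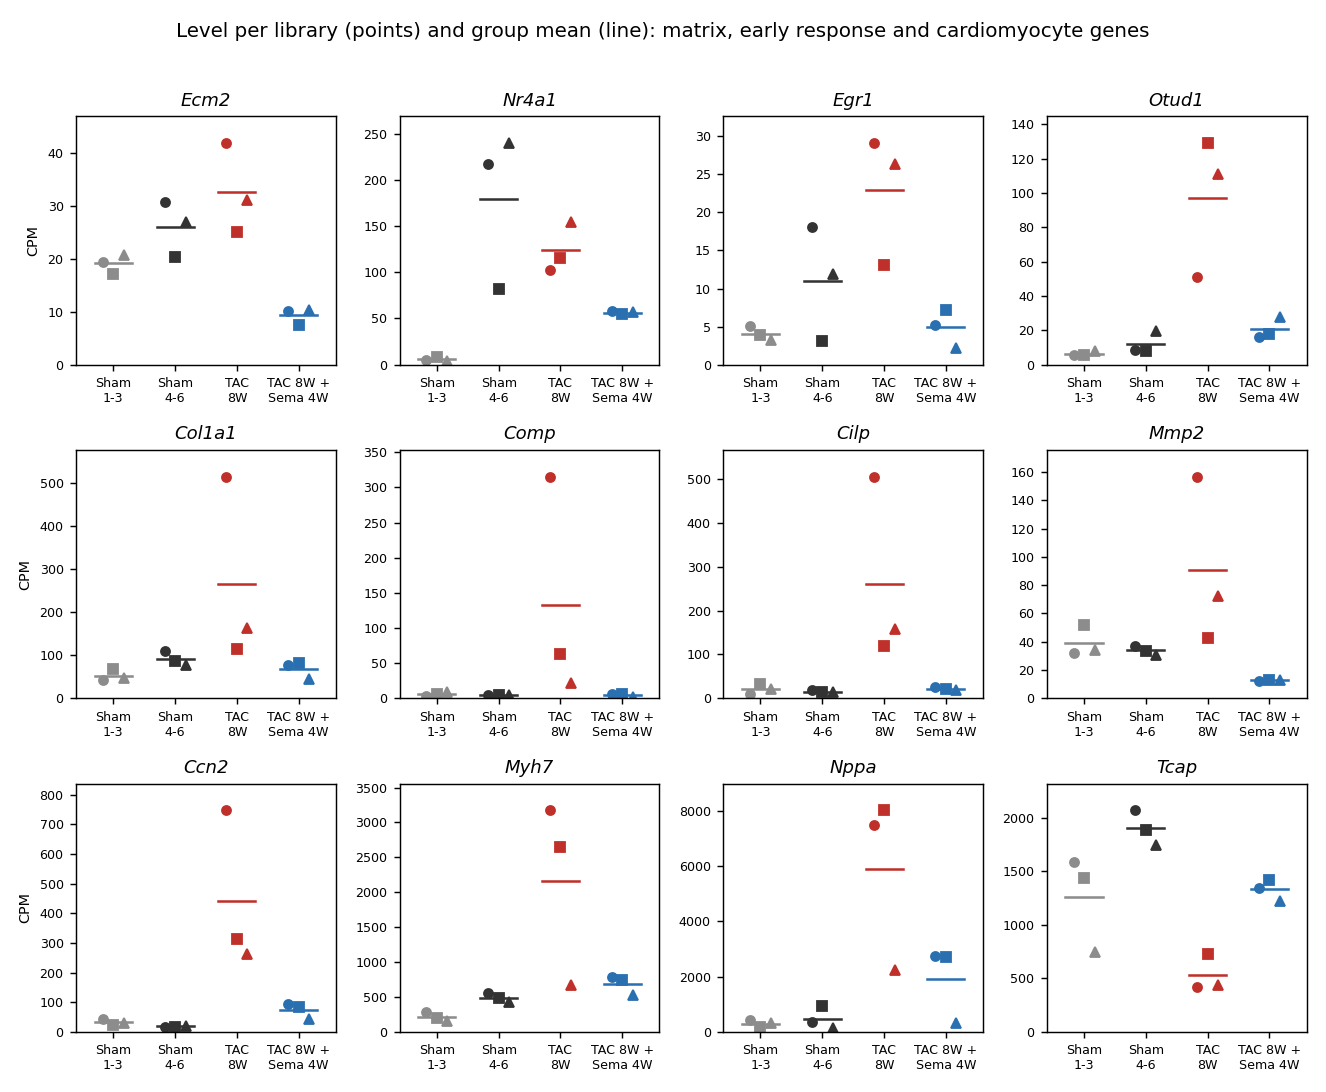
CPM per library (points; circle, square and triangle for the libraries of a group in order of replicate number) and group mean (line) for 12 genes in Sham 1-3, Sham 4-6, TAC 8W and TAC 8W + Sema 4W, each axis starting at 0. Nr4a1 is high in Sham 4-6, at 81.7 to 240 CPM, whereas Col1a1, Comp, Cilp and Mmp2 are low in both sham sets and in Sema 4W, with 1 high TAC 8W library.

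Among matrix enzymes and their inhibitors 6 of 26 fell and 1 rose, without TAC 8W replicate 1 these were 3 and 0, and with the pair averaged 3 and 1. Mmp2, a gelatinase, fell from 157, 42.5 and 72.2 CPM to 12.1, 12.6 and 12.99, below all 6 shams (30.9 to 51.8). The change was -2.85 (SE 0.51, edgeR adjusted p = 0.00306), the sham shift -0.22 and the sham-corrected change -2.63 (SE 0.68, adjusted p = 0.193). P4ha1, a prolyl hydroxylase of collagen, fell from 89.2, 71.3 and 87.0 CPM to 24.3, 22.7 and 38.8, the range of the shams being 18.7 to 26.9. This was a change of -1.53 (SE 0.25, edgeR adjusted p = 0.00161). Unlike the collagens, its TAC 8W libraries were close together. Serpinh1, the collagen chaperone, had the same shape at 238, 215 and 311 CPM against 128, 124 and 112, a change of -1.07 (SE 0.25, edgeR adjusted p = 0.0136) with a sham shift of 0.02. The rising member was Timp4, the main heart inhibitor of metalloproteinases, which was at 12.9, 13.2 and 20.4 CPM in TAC 8W and at 81.9, 81.8 and 31.4 with Sema 4W. Its change was 2.07 (SE 0.46, edgeR adjusted p = 0.0111) against a sham shift of -0.44, and in sham hearts Sema 4W differed from Sham 4-6 by 1.55 (SE 0.46, adjusted p = 0.345).

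Fibroblast markers moved with the matrix genes. Of 10 markers of resting and active fibroblasts 7 fell and 0 rose, and the summed level was 2918, 1421 and 2390 CPM in TAC 8W, 1012, 1038 and 648 with Sema 4W, 1567 to 2044 in Sham 1-3 and 1761 to 2664 in Sham 4-6. The Sema 4W libraries were thus below every sham, with 0 of the 10 markers at 0. Gsn, gelsolin, fell from 845, 765 and 1281 CPM to 524, 532 and 331, against a sham shift of 0.24 (change -1.06, SE 0.31, edgeR adjusted p = 0.0402). Without TAC 8W replicate 1, 1 of the 10 fell, without TAC 8W + Sema 4W replicates 1 or 2, 3 and 2 did, and without Sham 1-3 replicate 1, Sham 4-6 replicate 5 or TAC 8W replicate 3, 4 did, and with the pair averaged 3 did, while 7 or 8 were lower after correction for the sham shift at an unadjusted p under 0.05 throughout. In bulk tissue fewer fibroblasts and less RNA per fibroblast cannot be told apart, and the part of cell number in the fall of the matrix genes was not tested. Macrophage markers summed to 426, 106 and 277 CPM in TAC 8W and 121, 116 and 64.4 with Sema 4W, which overlap. The Sema 4W libraries and also TAC 8W replicate 2 were below the 225 to 369 of the shams. Of the 10 macrophage markers, 2 fell, Adgre1 (27.4, 2.75 and 8.57 CPM against 2.29, 0.824 and 1.10) and C1qc, a complement component (63.1, 19.1 and 41.1 against 14.4, 15.9 and 9.03), and all 10 sham-corrected values were below 0. Without TAC 8W replicate 1 or TAC 8W + Sema 4W replicate 2, 0 of the 10 fell, and without TAC 8W replicate 2, which was the lowest of its group, 8 did. With the pair averaged 1 fell. Endothelial and smooth muscle markers had median sham-corrected changes of -0.31 and -0.57, with 1 of 10 and 0 of 10 past the threshold of the change.

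Few hypertrophy and fetal genes passed the test. Of 12 members 2 fell, Myh7 and Ccn2, 0 rose, and the median sham-corrected change was -0.03. That median was 0.27 without TAC 8W replicate 1 and 0.36 with limma-voom quality weights, where 5 rose and 1 fell, and leaving out TAC 8W + Sema 4W replicate 3 gave 2 in each direction. Over all genes limma-voom gave 3226 that rose and 3712 that fell, and the fit without that library gave 1421 and 1956. In TAC 8W 9 of the 12 were higher than in Sham 1-3, and in TAC 8W + Sema 4W 9 were higher than in Sham 4-6. Ccn2, a matricellular growth factor that also marks activated fibroblasts, fell from 748, 315 and 262 CPM to 94.2, 83.4 and 44.4 but stayed above the 17.7 to 43.0 of the shams. Its change was -2.58 (SE 0.40, edgeR adjusted p = 0.00144), its sham shift -0.78 and its adjusted p at most 0.00893 with any 1 library left out.

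Myh7, the fetal myosin heavy chain, was at 3176, 2653 and 672 CPM in TAC 8W and at 789, 740 and 530 with Sema 4W, so that TAC 8W replicate 3 lay among the Sema 4W libraries. The change of -1.66 (SE 0.42, edgeR adjusted p = 0.022) opposed a sham shift of 1.20, and the sham-corrected change was -2.86 (SE 0.60, adjusted p = 0.0961). The call did not hold without TAC 8W replicate 1 or 2 (adjusted p = 0.15 and 0.0568) or without TAC 8W + Sema 4W replicate 1 or 2 (0.0608 and 0.0696), and with limma-voom quality weights, which give less weight to libraries that stand apart, the change was -0.10 (adjusted p = 0.798). Nppa, atrial natriuretic peptide, was at 7492, 8039 and 2235 CPM in TAC 8W and at 2758, 2707 and 305 with Sema 4W, which overlap (change -1.62, SE 0.78, edgeR adjusted p = 0.207). Nppb, the brain natriuretic peptide, was at 1682, 2885 and 1843 CPM and at 3568, 3665 and 574, so that 2 Sema 4W libraries were above every TAC 8W library and 1 was below (change 0.28, SE 0.56, adjusted p = 0.783).

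Adult sarcomere genes were the check of the tissue, and all 16 were expressed, at a summed 54426 to 97242 CPM in TAC 8W and 85759 to 118630 with Sema 4W. Among them 1 rose, Tcap, a titin cap protein of the Z disc, from 417, 727 and 438 CPM to 1348, 1419 and 1225, by 1.33 (SE 0.36, edgeR adjusted p = 0.0283) beside a sham shift of 0.60. Its adjusted p was 0.116 and 0.106 without TAC 8W replicate 1 or 3. Of 24 genes of calcium handling and ion channels 1 rose and 0 fell, and the median sham-corrected change was 0.31. Leaving out TAC 8W + Sema 4W replicate 3 gave 6 that fell and 1 that rose, with a median of -0.41, and limma-voom quality weights gave 15 and 4, with a median of -0.60. Over all genes the first of these settings gave 1956 that fell and 1421 that rose, and the second 3712 and 3226. Ryr2, the calcium release channel, was at 175, 165 and 766 CPM with Sema 4W, and replicate 3 was above every other library of the 4 groups.

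**Figure D4:**
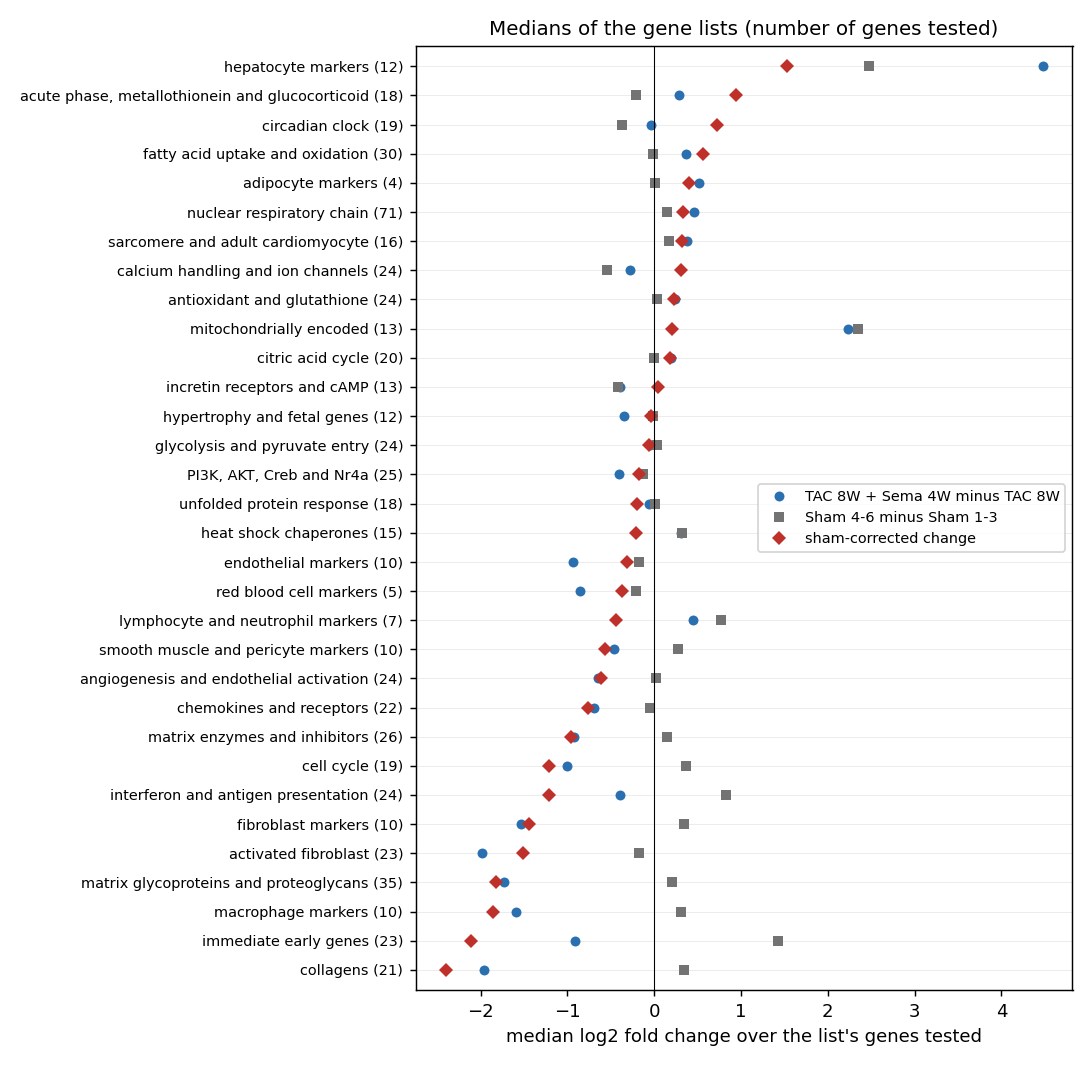
For each gene list (number of genes tested in brackets), points give the median log2 fold change of TAC 8W + Sema 4W minus TAC 8W (circle), Sham 4-6 minus Sham 1-3 (square) and the sham-corrected change (diamond). Collagens are lowest in the sham-corrected change at -2.40, while mitochondrially encoded genes have a median change of 2.23 beside a sham shift of 2.35.

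Mitochondrially encoded genes changed by about as much as their sham shift. Of 13 such genes 10 rose in TAC 8W + Sema 4W against TAC 8W, 4 of them within the sham shift and 6 exceeding it, and 11 were higher in Sham 4-6 than in Sham 1-3. With GC and length trends removed 4 of the 13 rose, and with single libraries left out 8 to 11 did. The median change was 2.23, the median sham shift 2.35 and the median sham-corrected change 0.20. mt-Co2, subunit 2 of cytochrome c oxidase, was at 819, 2266 and 1270 CPM in TAC 8W and 24562, 13918 and 7439 with Sema 4W, and at 1345 to 1516 in Sham 1-3 and 12280 to 19783 in Sham 4-6. Its change of 3.40 (SE 0.60, edgeR adjusted p = 0.00279) and its sham shift of 3.43 left a sham-corrected change of -0.03. mt-Atp6, a subunit of ATP synthase, changed by 3.72 beside a sham shift of 3.87. Other genes within the shift were Nudt3, a diphosphoinositol phosphatase (change -2.37, sham shift -2.40), Btg1, an antiproliferative gene (-1.36 and -1.41), and Haus3, a subunit of the augmin complex (2.01 and 2.77).

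Nuclear genes of mitochondrial metabolism mostly did not pass the test. Of 71 nuclear respiratory chain genes and of 20 citric acid cycle genes 0 rose or fell, with median changes of 0.45 and 0.19 and median sham-corrected changes of 0.33 and 0.18. Of these sham-corrected values 70 of 71 and 19 of 20 were above 0. Without TAC 8W replicate 1 the sham-corrected medians were 0.09 and 0.05, and without TAC 8W replicate 2 they were 0.67 and 0.34. Summed over the list, respiratory chain genes took 27888, 64882 and 49415 CPM in TAC 8W and 74055, 73798 and 42552 with Sema 4W, which overlap. The respiratory chain count depended on the method, since with limma-voom quality weights 61 of the 71 rose and 0 fell. In that fit 52 of them had a higher sham-corrected change at an unadjusted p under 0.05 and 0 a lower one. How many of all genes did so is not given here. An adjusted p of 0.05 of the sham-corrected change was passed by 1788 of all genes in the limma-voom fit. Without TAC 8W + Sema 4W replicate 3, 5 of the 71 rose, beside 1421 genes over all. In the citric acid cycle the limma-voom fit gave 6 that rose and 7 that fell. Of all 12626 genes that fit gave 3226 that rose and 3712 that fell. Of 30 genes of fatty acid uptake and oxidation 3 rose and 0 fell, and the median sham-corrected change was 0.57, with 29 of 30 values above 0. When TAC 8W replicate 1 or TAC 8W + Sema 4W replicate 1 was left out, or the pair averaged, 1 rose, and when TAC 8W + Sema 4W replicate 3 was left out 7 rose and 2 fell, with a median of 0.23. With limma-voom quality weights 11 rose and 5 fell, and the median was 0.13. Plin5, a lipid droplet coat protein, was at 36.0, 84.2 and 63.1 CPM in TAC 8W and at 133, 144 and 86.1 with Sema 4W, and its change of 0.99 (SE 0.29, edgeR adjusted p = 0.0461) stayed past the threshold in 2 of the 12 fits with a library left out. It missed without each of the 6 shams, TAC 8W replicates 1 or 3, or TAC 8W + Sema 4W replicates 1 or 2, where the adjusted p reached 0.179. Ucp3, a mitochondrial uncoupling protein, was at 2.69, 4.07 and 5.21 CPM and at 5.98, 3.50 and 23.3, which overlap. Of 24 glycolytic genes 0 rose or fell, with a median change of -0.04, and Pfkl, liver-type phosphofructokinase, changed by -0.33 (SE 0.21, edgeR adjusted p = 0.343).

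The acute phase genes Lcn2, Mt2 and Lrg1 and the chemokines Ccl2 and Ccl7 were high in 2 of the 3 Sema 4W libraries. Of 18 acute phase, metallothionein and glucocorticoid-induced genes 5 rose and 0 fell, 3 rose when TAC 8W + Sema 4W replicate 2 or TAC 8W replicate 3 was left out, and 6 rose and 2 fell when TAC 8W + Sema 4W replicate 3 was. Lcn2, lipocalin 2, was at 3.77, 2.83 and 2.30 CPM in TAC 8W and at 214, 215 and 2.92 with Sema 4W, so that replicate 3 lay within TAC 8W. The change was 5.58 (SE 0.99, edgeR adjusted p = 0.00296). Mt2, a metallothionein, was at 151, 59.2 and 46.2 CPM and at 1259, 1281 and 50.03, and its change of 3.34 (SE 0.79, edgeR adjusted p = 0.0143) was not past the threshold with the close pair averaged (adjusted p = 0.0559). Lrg1, a secreted acute phase glycoprotein, was at 18.04, 27.5 and 18.4 CPM in TAC 8W and at 221, 256 and 28.3 with Sema 4W, with no overlap, and replicate 3 was below all 6 shams (31.9 to 42.5).

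The chemokine Ccl2, which draws monocytes, was at 3.89, 1.95 and 4.98 CPM in TAC 8W and at 66.8, 64.9 and 0.845 with Sema 4W, and Ccl7, a related chemokine, at 0.962, 0.620 and 1.15 and at 19.0, 18.6 and 0.520. In both, replicates 1 and 2 were above and replicate 3 below every TAC 8W library. The changes of 3.601 and 3.77 (edgeR adjusted p = 0.0237 and 0.0186) thus rest on the pair that lay closer together than any other, and with that pair averaged the adjusted p of Ccl2 was 0.0855. Of 22 chemokines and receptors 4 rose and 3 fell, and without either library of that pair, or with the pair averaged, 1 rose and 0 fell. Leaving out TAC 8W replicates 1, 2 or 3 gave 1, 1 and 1 that rose and 1, 4 and 2 that fell. Summed over the list, chemokines and receptors took 189, 134 and 166 CPM in TAC 8W and 178, 161 and 72.4 with Sema 4W, which overlap. Ackr3, a scavenging chemokine receptor, fell from 71.6, 97.5 and 97.4 CPM to 28.0, 24.9 and 50.1, by -1.37 (SE 0.35, edgeR adjusted p = 0.0218), beside a sham shift of -0.33.

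**Figure D5:**
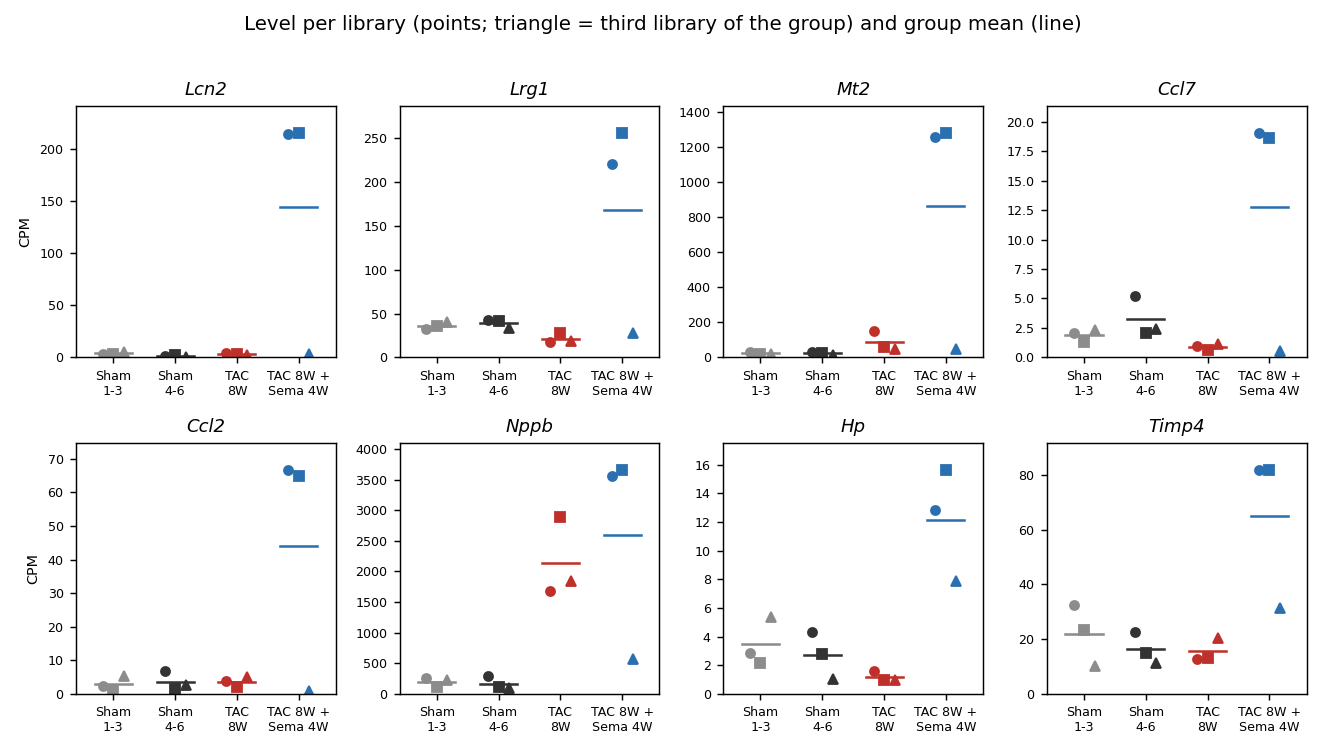
CPM per library (points) and group mean (line) for 8 genes in Sham 1-3, Sham 4-6, TAC 8W and TAC 8W + Sema 4W, each axis starting at 0. In Lcn2, Mt2, Ccl2, Ccl7 and Nppb, replicates 1 and 2 with Sema 4W (circle and square) are high and replicate 3 (triangle) is not, while in Hp and Timp4 all 3 Sema 4W libraries are above TAC 8W.

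Liver transcripts were present in the second library set. A list of 12 hepatocyte transcripts, written after its members had been seen among the rising genes, summed to 14.04, 5.40 and 12.3 CPM in TAC 8W, 189, 227 and 198 with Sema 4W, 5.32 to 11.1 in Sham 1-3 and 31.4 to 75.1 in Sham 4-6. Sham hearts with Sema 4W had 115, 63.2 and 214 CPM, which overlaps TAC 8W + Sema 4W. Against Sham 4-6 their median log2 fold change over the list was 2.15, with 0 of the 12 past the threshold. All 12 rose between the TAC groups, and by the fitted values 11 of these exceeded and 1, Mup3, opposed the sham shift. Mup3 was at 0 in Sham 4-6 and Serpina1a at 0 in Sham 1-3. The classes of these 2 genes thus rest on a sham shift that has no defined size. The median sham-corrected change was 1.53, and 2.28 with genes that were at 0 in a whole group set to their lower bound. With single libraries left out the first of these ran from 0.23 without Sham 1-3 replicate 1 to 2.15 without TAC 8W replicate 1. Alb, albumin, named after its values were seen, was at 3.08, 0.0886 and 1.84 CPM in TAC 8W and 71.6, 99.8 and 103 with Sema 4W. Without TAC 8W replicate 1, 2 or 3 the number that rose was 6, 8 and 7, leaving out Sema 4W replicate 2 gave 8, and averaging the pair gave 9. Hp, haptoglobin, a liver protein of the acute phase list, rose from 1.62, 0.974 and 0.995 CPM to 12.8, 15.7 and 7.86, by 3.30 (SE 0.55, edgeR adjusted p = 0.00213) against a sham shift of -0.34. Apoa2, an apolipoprotein, rose from 0.615, 0.974 and 2.07 CPM to 17.4, 18.6 and 13.3. Mup3, a urinary protein made in liver, was at 0.0769, 0 and 0.765 CPM and at 14.1, 11.2 and 11.4, and at 0 in all 3 Sham 4-6 libraries, so no shift is given for it. Whether these transcripts were made in the heart was not tested.

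Genes of interferon response and antigen presentation differed through their shams. Of 24 members 0 rose or fell, the median change was -0.39 and the median sham shift 0.83, and all 24 sham-corrected values were below 0, 12 of them at an unadjusted p under 0.05 (6 without TAC 8W replicate 1, 7 without Sham 1-3 replicate 2). H2-Ab1, a class II histocompatibility chain, was at 44.1, 20.7 and 29.2 CPM in TAC 8W and 15.6, 17.5 and 8.51 with Sema 4W, and at 33.6 to 45.9 in Sham 1-3 and 47.7 to 123 in Sham 4-6. Its change was -1.19 (edgeR adjusted p = 0.165) and its sham shift 1.16. Against Sham 4-6, 9 of the 24 were lower in TAC 8W + Sema 4W (background 0.713%).

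Leaving out single libraries sorted the named genes into those that kept their call and those that did not. The changes of Ecm2, Cilp, Comp, Ccn2, Ccn5, Fmod, Mfap4, Col1a2, Col8a1, Mmp2, P4ha1, Lcn2, Lrg1, Hp, Apoa2, Nudt3, mt-Co2 and mt-Atp6 stayed past an edgeR adjusted p of 0.05 with each of the 12 libraries left out in turn. Each of these fits keeps at least 1 library of the close pair, so they cannot show whether a call rests on that pair. In Lcn2 it does, since replicate 3 with Sema 4W lay within TAC 8W. The threshold was missed without TAC 8W replicate 1 by Col1a1, Col3a1, Col16a1, Sfrp2, Fndc1, Adamtsl2, Timp4, Adgre1, C1qc, Gsn, Egr1, Myh7, Tcap, Plin5, Ccl2, Ccl7, Mup3, Btg1 and Haus3. The highest adjusted p was that of Col3a1, 0.324, with a change of -0.76. Leaving out TAC 8W + Sema 4W replicate 1 or replicate 2 took the calls of Col3a1, Sfrp2, Adamtsl2, C1qc, Gsn, Egr1, Otud1, Myh7, Tcap, Plin5, Mt2, Ccl2, Ccl7, Ackr3, Mup3 and Haus3, and replicate 2 also those of Adgre1 and Serpinh1. C1qc, Gsn and Egr1 missed it without replicate 3 of that group. Leaving out TAC 8W replicate 2 took the calls of Ccl2, Ccl7, Myh7, Mup3 and Haus3, and leaving out replicate 3 those of Serpinh1, Adamtsl2, C1qc, Gsn, Egr1, Tcap, Plin5, Mt2, Ccl2, Ccl7 and Ackr3. Plin5 missed it without each of the 6 shams, Egr1 without 4 of them, C1qc without 3 and Gsn without 2, with adjusted p-values of 0.0501 to 0.0598. With the close pair averaged the calls of Ackr3, Adamtsl2, C1qc, Ccl2, Ccl7, Col3a1, Egr1, Gsn, Haus3, Mt2, Mup3, Myh7, Otud1, Plin5, Serpinh1, Sfrp2 and Tcap were lost.

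Sema 4W in sham hearts gave 0 genes past the threshold against Sham 4-6 with edgeR, and 648 higher and 1150 lower at an unadjusted p under 0.05 (5.13% and 9.11%). For the genes above it differed by -0.02 in Ecm2, -1.003 in Nr4a1, -0.47 in Col1a1, -0.33 in Cilp, -0.82 in Ccn2 and 0.32 in Myh7, each with an edgeR adjusted p of 0.345 or more.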

How the data were processed

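RNA-seq was run on 21 mouse heart libraries in 7 groups, all of which entered the fit. The authors deposited 1 table of raw read counts per Ensembl gene; the methods name HISAT2 for alignment, and the submitters' processing notes list cutadapt 1.11, featureCounts 1.6.0, edgeR and the build mm10. For strand and annotation the setting is not given in the sources used here. Every sample column was mapped, by its name or, where its name holds a part that no label explains, by elimination. GENCODE M21 gave symbols for 22118 of 22136 gene IDs. Genes were kept by filterByExpr (minimum count 10, minimum total 15), which left 12626. The edgeR quasi-likelihood fit (edgeR 4.0.16, limma 3.58.1, R 4.3.3) used TMM scaling factors, with a common dispersion of 0.120, and p-values were adjusted by Benjamini-Hochberg over all kept genes. CPM are counts scaled by the TMM effective library size, and the SE of a log2 fold change was taken from its F statistic. The study's own expression test used another tool and threshold, and no value of it is used.

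The sham-corrected change is a single contrast of 4 groups in that fit. The text names genes past its threshold; the 8 largest sham-corrected rises and falls among changed genes of at least 5 CPM with non-overlapping libraries; the 4 rising and 4 falling such genes with the largest sham shift within, and likewise against, the change; up to 4 members of each list by p; and Nppa, Nppb, Col1a1, Col3a1, Creb5, Nr4a1 and Glp1r. Members, lists and rules were chosen with earlier results of these data known. The alternatives were DESeq2 1.42.0, its size factors, limma-voom with quality weights, no and stricter count filters, the groups compared alone, a replicate block, removal of GC and length trends or of mitochondrial genes, and single libraries left out. Averaging of the close pair and the liver list were added after seeing the data. The scripts were tested on simulated counts. A result that is withheld is not reported here.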

Additional observations from a re-analysis of the deposited data

Results flagged for a closer look

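For 2 genes the change between the TAC groups differed from the change between the sham sets by the test of that difference. In Ecm2 it was -1.81 between TAC 8W and TAC 8W + Sema 4W and 0.44 between the sham sets, a difference of -2.25 (SE 0.34, edgeR adjusted p = 0.0142). In Nr4a1 these were -1.14 and 4.94, a difference of -6.08 (SE 0.93, edgeR adjusted p = 0.0142). With TAC 8W + Sema 4W replicates 1 and 2 averaged into 1 library neither passed the edgeR threshold (adjusted p = 0.0766 and 0.0786).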

How the results depend on the processing

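With single libraries left out, 305 to 3377 genes changed, 231 to 1421 rose and 58 to 1956 fell. In the same fits 221 to 2874 were exceeding, 30 to 288 opposing and 38 to 215 within, 47 to 843 genes differed between the sham sets, and the sham-corrected change passed in 0 to 34 genes. The lowest numbers of changed genes and their classes came without TAC 8W replicate 1 or TAC 8W + Sema 4W replicate 2 and the highest without TAC 8W + Sema 4W replicate 3, and the lowest number between the sham sets without Sham 1-3 replicate 2. The sham-corrected count was 34 there, 17, 3 and 2 when TAC 8W replicates 2, 3 and 1 were left out, 2 for Sham 4-6 replicate 5, and 0 for each of the other 7 libraries.

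DESeq2 gave 1500 changed genes (904 rose, 596 fell), 1098 exceeding, 838 between the sham sets and 75 past the sham-corrected threshold. With limma-voom quality weights, where TAC 8W + Sema 4W replicate 3 had a weight of 0.14, 6938 changed (3226 and 3712), 4905 were exceeding, 1340 opposing and 693 within, 3184 differed between the sham sets and 1788 passed the sham-corrected test. With the close pair averaged, a setting chosen after seeing the data, 353 changed (246 and 107), of which 246 were exceeding, 41 opposing and 66 within, and 0 passed the sham-corrected test. The stricter filter gave 525 (333 and 192), with 366 exceeding, 72 opposing, 87 within, 240 between the sham sets and 3 sham-corrected. Without GC and length trends 837 rose and 1 passed the sham-corrected test, which 11 genes passed without a count filter and 1 with only the groups compared. At an adjusted p under 0.1 the counts were 1538 and 14. The named genes past the threshold of the change kept its sign under each of these alternatives. The balance of the counts did turn: rises outnumbered falls with all libraries, and falls outnumbered rises with limma-voom, without TAC 8W + Sema 4W replicate 3 (1421 rose, 1956 fell) and without TAC 8W replicate 2 (346 and 518). Median sham-corrected changes also turned sign, from -0.03 to as much as 0.36 in hypertrophy genes, from -0.76 to 0.42 in chemokines (without TAC 8W replicate 1) and from 0.31 to -0.60 in calcium handling genes, and under at least 1 setting in the lymphocyte, red blood cell, glycolytic, mitochondrially encoded, unfolded protein, heat shock, circadian, Creb and Nr4a, and incretin lists. The causes of these shifts were not tested.

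With the replicate number as a block 515 genes changed (348 rose, 167 fell). Of 45 same-number correlations 11 were over 0.1. Libraries of different numbers were not set beside them, so whether the numbers pair the libraries was not settled. The sham-corrected change could not be fitted with the block because Sham 4-6 shares no number with the other groups. The median SE of a sham-corrected change, 0.558 on the log2 scale, limits what 3 libraries a group can show.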
